A study of Mus musculus with 23 samples.

Results

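The 3 GLI genes, Gli1, Gli2 and Gli3, were followed across 8 groups of mouse medulloblastoma allografts. Every probe set that the platform annotation assigns to one of these symbols was taken, which gave 6 of the 45101 probe sets on the array (1 for Gli1, 2 for Gli2 and 3 for Gli3). All 23 arrays carry total RNA of tumours started from dissociated Ptch+/-HIC+/- medulloblastoma cells, placed beneath the skin of nude (nu/nu) mice, so that every group, controls included, shares the heterozygous Ptch and HIC alleles and a host without mature T cells. The control groups were vehicle with no stated time (3 arrays) and vehicle at 4 h (2 arrays). NVP-LDE225 at 40 mg/kg was given for 4, 8, 24 or 48 h (3 arrays each), and tumours described as resistant carried the doses 40 and 160 mg/kg (3 arrays each). NVP-LDE225, also known as sonidegib, is an antagonist of Smoothened, the membrane protein through which Hedgehog ligands activate GLI factors. The labels give neither the age of the mice, nor whether arrays of a group came from separate animals, nor how long resistant tumours had been treated, and p-values therefore measure only the spread between these arrays.

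GLI proteins are zinc finger transcription factors at the end of the Hedgehog pathway. Without ligand, the receptor Ptch1 holds Smoothened inactive, and full-length Gli2 and Gli3 are phosphorylated and in part cut to repressors, mainly in the case of Gli3. With the pathway on, Gli2 acts as the main activator, and Gli1, which lacks the repressor form, is itself a transcriptional target and a common readout of the pathway. In the cerebellum this pathway drives division of granule neuron precursors, the cells from which medulloblastomas of Ptch mutant mice arise.

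The 250 bases before the start site are shown for Gli2 and Gli3, whose signals moved in opposite directions at 48 h. Both sequences are from RefSeq on GRCm38.p6, whose promoter table held 2 of the 3 genes, Gli2 and Gli3. They run 5′ to 3′ on the strand of the gene, with a match to the core of the GLI binding motif, ACCACCC on either strand, in capitals.
Gli2: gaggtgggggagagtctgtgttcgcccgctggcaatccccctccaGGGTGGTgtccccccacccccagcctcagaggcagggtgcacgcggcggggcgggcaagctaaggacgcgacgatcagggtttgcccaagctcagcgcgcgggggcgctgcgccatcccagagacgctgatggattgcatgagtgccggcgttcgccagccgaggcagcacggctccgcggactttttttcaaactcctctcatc
Gli3: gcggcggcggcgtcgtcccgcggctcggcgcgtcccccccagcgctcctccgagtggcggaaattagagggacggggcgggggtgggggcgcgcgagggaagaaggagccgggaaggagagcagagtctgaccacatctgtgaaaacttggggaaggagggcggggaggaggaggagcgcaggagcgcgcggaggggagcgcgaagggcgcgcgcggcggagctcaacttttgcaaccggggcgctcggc
The Gli2 window (chr1:119053620-119053869, minus strand) held 1 core match, the reverse complement GGGTGGT, beginning 205 bases before the start site. The Gli3 window (chr13:15463473-15463722, plus strand) held these letters on neither strand. The core was present in 4.61% of 32851 RefSeq promoters (250 bases before to 50 after the start), and the full motif GACCACCCA, which contains the core, in 0.253% of them and in neither Gli gene. Of 22 listed GLI target genes, 13 had a promoter in the table and 0 of these held the core in that window, so the letters are a description of the sequence and not of binding.

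Signals are MAS5 intensities on a linear scale, on arrays that had each been scaled to a 2% trimmed mean of 150. The 40th percentile of an array's signals, between 18.7 and 28.6, served as the floor below which a level was read only as a bound; it was set for this work and is not the array software's detection call. Tests used log2 of signal plus 16 with limma over 35069 probe sets, a threshold of 0.05 on the Benjamini-Hochberg adjusted p, and a fit that shares 1 estimate of spread across all groups. For 6 of the 12 arrays described as treated for 4 to 48 h (2 at 4 h, all 3 at 8 h, 1 at 24 h), another label calls the tumour resistant. The description was followed. On those 6 arrays Gli1 read from 3.4 to 96.6, against 593.7 to 1268.8 on the 6 arrays whose description says resistant. Gli1 is itself compared between these groups below, so its values cannot show which label is right. All 8 markers of the granule neuron lineage were above that floor on some arrays, 7 of them on all 23. The summed signal of these 8 was 9535 to 10960 with vehicle and 18080 to 20960 at 48 h. At 48 h 5 of the 8 had risen and 2 had fallen, beside 20.6% of all probe sets called higher and 17.7% lower. The array titles are numbers in 3 runs whose meaning is not given, and the 4 h and 8 h drug arrays lie in another run than the vehicle arrays with no stated time. Of the 4 h vehicle, only replicate 2 lies in the run of these drug arrays, and replicate 1 lies alone in a further run.

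Gli1, the target gene that reports pathway output, fell within 4 h of the drug and was near or below the floor from 8 h on. Its probe set 1449058_at read 630.8, 695.5 and 710.2 with vehicle, and 516.7 and 699.6 with 4 h vehicle. After 4 h of drug it read 121.7, 96.6 and 82.2. All 3 treated arrays lay below both controls, as did 12.9% of probe sets, and the mean log2 level was 6.08-fold lower. On the log2 scale of signal plus 16 the fall was -2.42 (SE 0.35; limma adjusted p = 0.0011), the lowest change of all 35069 probe sets tested in a comparison that called 0.285% of them. The call was lost with an offset of 1 (-2.59, adjusted p = 0.24), without replicate 2 of the 4 h vehicle (-2.21, adjusted p = 0.056) and without the 2 arrays at 4 h that another label calls resistant (-2.16, adjusted p = 0.16). In RNA of whole tumours, fewer cells of a type and less RNA per cell cannot be told apart.

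At 8 h Gli1 read 4.7, 23.5 and 3.4, with 1 of 3 arrays above its own 40th percentile. Against the 4 h vehicle this was -4.62 (SE 0.35; limma adjusted p = 1.7e-08), at least 27.2-fold lower with values held at the floor, and again the lowest change of all probe sets, of which 3.25% were called. Between 4 h and 8 h it fell by a further 2.19 (SE 0.31; limma adjusted p = 0.00038), the third lowest change in a comparison that called 0.485%. That step was -3.55 with an offset of 1 and -1.14 with an offset of 64, both called. At 24 h Gli1 read 11.5, 2.0 and 47.6, and at 48 h 4.2, 14.1 and 18.6. These 6 arrays overlapped those at 8 h and lay below every vehicle array, as did 17.7% of probe sets at 24 h and 22.5% at 48 h. Gli1 was at least 21.2-fold lower at 24 h (-4.46, limma adjusted p = 1.1e-10) and at least 24.7-fold lower at 48 h (-4.65, limma adjusted p = 3.6e-11) than with vehicle. It ranked 10th from the lowest change at both times, in comparisons that called 29% and 38.3% of probe sets. Steps from 8 h to 24 h (0.33, 95% interval -0.32 to 0.98) and from 24 h to 48 h (-0.19, -0.84 to 0.45) did not pass the test, on levels mostly under the floor.

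**Figure D1:**
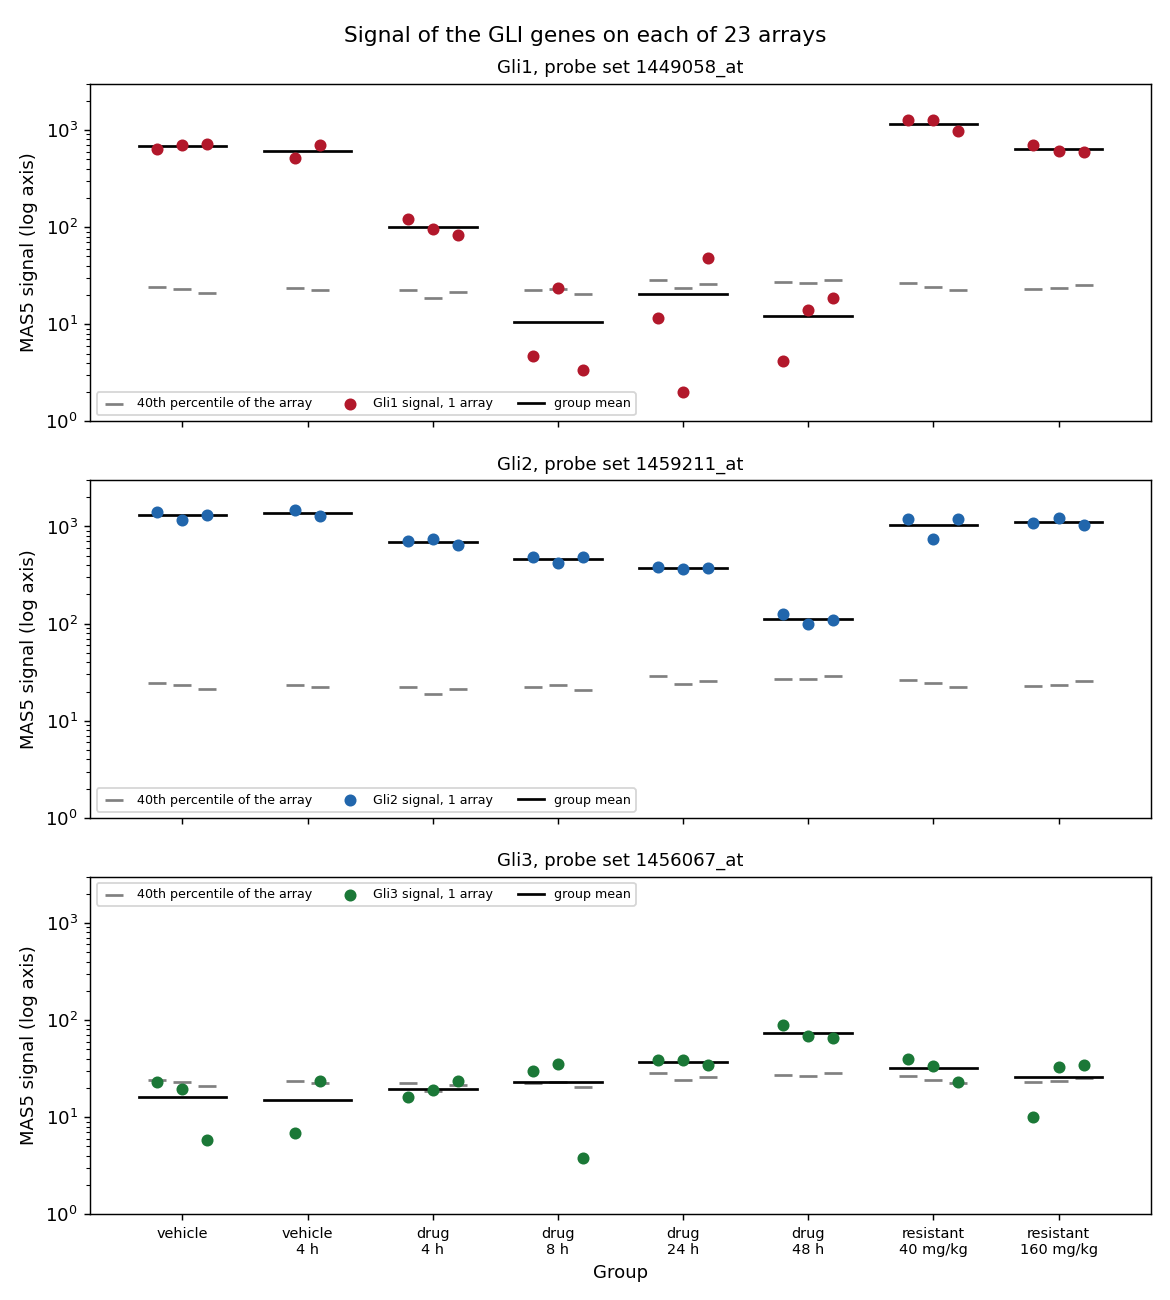
MAS5 signal (log axis) of Gli1, Gli2 and Gli3 by their brightest tested probe set, on each of 23 arrays in 8 groups, where points are arrays, black bars are group means and grey dashes mark each array's 40th percentile. Gli1 drops from 516.7 to 710.2 with vehicle to 4.7, 23.5 and 3.4 at 8 h, Gli2 steps down to 100.0 to 124.7 at 48 h, Gli3 reaches 64.6 to 89.8 at 48 h, and the resistant arrays lie near vehicle for Gli2 and near or above it for Gli1.

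Gli2, the principal activator of the family, was lower than its vehicle group at each of the 4 times and stayed above the floor on all 23 arrays. Probe set 1459211_at read 1399.8, 1175.8 and 1319.2 with vehicle and 1478.0 and 1271.0 with 4 h vehicle. After 4 h of drug it read 710.9, 737.3 and 645.8, below both 4 h controls as were 12.9% of probe sets. The level was 1.97-fold lower (-0.96, SE 0.15, limma adjusted p = 0.0024). That call was lost with the title run as a block (-0.85, adjusted p = 0.18), without replicate 1 of the 4 h vehicle (-0.85, adjusted p = 0.13) and without the arrays another label calls resistant (-0.93, adjusted p = 0.26). At 8 h Gli2 read 483.7, 423.4 and 487.6, which was 2.95-fold lower than the 4 h vehicle (-1.53, SE 0.15; limma adjusted p = 8.4e-07).

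The step of Gli2 from 4 h to 8 h was -0.57 (95% interval -0.85 to -0.29; limma adjusted p = 0.063). At 24 h it read 386.6, 368.7 and 377.7, 29.1% of the vehicle mean (-1.74, limma adjusted p = 7.8e-10), and the step from 8 h was -0.29 (limma adjusted p = 0.18). At 48 h it read 124.7, 100.0 and 107.9, 8.54% of the vehicle mean, with all 3 arrays below all 3 at 24 h, as in 20.3% of probe sets. From 24 h to 48 h it fell by 1.64 (SE 0.14; limma adjusted p = 2.6e-08), while 20.5% of probe sets were called in that comparison. Against vehicle the change at 48 h was -3.37 (SE 0.14; limma adjusted p = 8.6e-15), 11.7-fold lower and 81st from the lowest change. Over the same interval the step of Gli1, with 1 of these 6 arrays above its floor, was -0.19.

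The other probe set of Gli2, 1446086_s_at, derives from the same sequence accession and is no independent measure of the transcript. It read 666.3, 650.4 and 596.8 with vehicle, 394.7, 321.9 and 324.8 at 4 h, and 226.8, 226.7 and 256.9 at 8 h. It then read 131.2, 137.4 and 195.7 at 24 h and 49.1, 46.3 and 46.1 at 48 h. Its order over these groups was the same as that of 1459211_at, with a lower level throughout: Pearson's r between both was 0.989 across 23 arrays, and the log2 difference was 1.00 ± 0.17 (SD). Its changes were -1.07 at 4 h and -3.37 at 48 h. It also fell by 0.58 from 8 h to 24 h (limma adjusted p = 0.0093), where 1459211_at gave -0.29 (adjusted p = 0.18) and 14% of probe sets were called.

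Gli3, whose cut form is the main repressor of the family, was near or below the floor in most groups and was higher at 48 h. Its brightest probe set, 1456067_at, read 22.9, 19.5 and 5.8 with vehicle, with 0 of 3 arrays above the 40th percentile, and 6.8 and 23.5 with 4 h vehicle. It read 16.3, 19.2 and 23.7 at 4 h and 30.0, 35.5 and 3.8 at 8 h, and these arrays overlapped the vehicle arrays. At 24 h it read 38.6, 38.4 and 34.1, above all 3 vehicle arrays as were 25.3% of probe sets (0.77, 95% interval 0.08 to 1.45; limma adjusted p = 0.087). At 48 h it read 89.8, 68.7 and 64.6, above every other array of the series. That was at least 3.21-fold higher than vehicle with values held at the floor (1.53, SE 0.33; limma adjusted p = 0.00064), beside 20.6% of probe sets called higher. The size of this rise depends on the offset, at 2.32 with an offset of 1 and 0.79 with an offset of 64, both called.

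The remaining probe sets of Gli3 gave less. Probe set 1455154_at read 57.8, 41.5 and 26.3 at 48 h against 2.0, 28.9 and 24.0 with vehicle, which overlap (0.82, limma adjusted p = 0.15). Probe set 1450525_at exceeded the 40th percentile on 0 of 23 arrays, reached at most 17.7, and was not tested. The rise of Gli3 thus rests on 1 of its 3 probe sets.

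**Figure D2:**
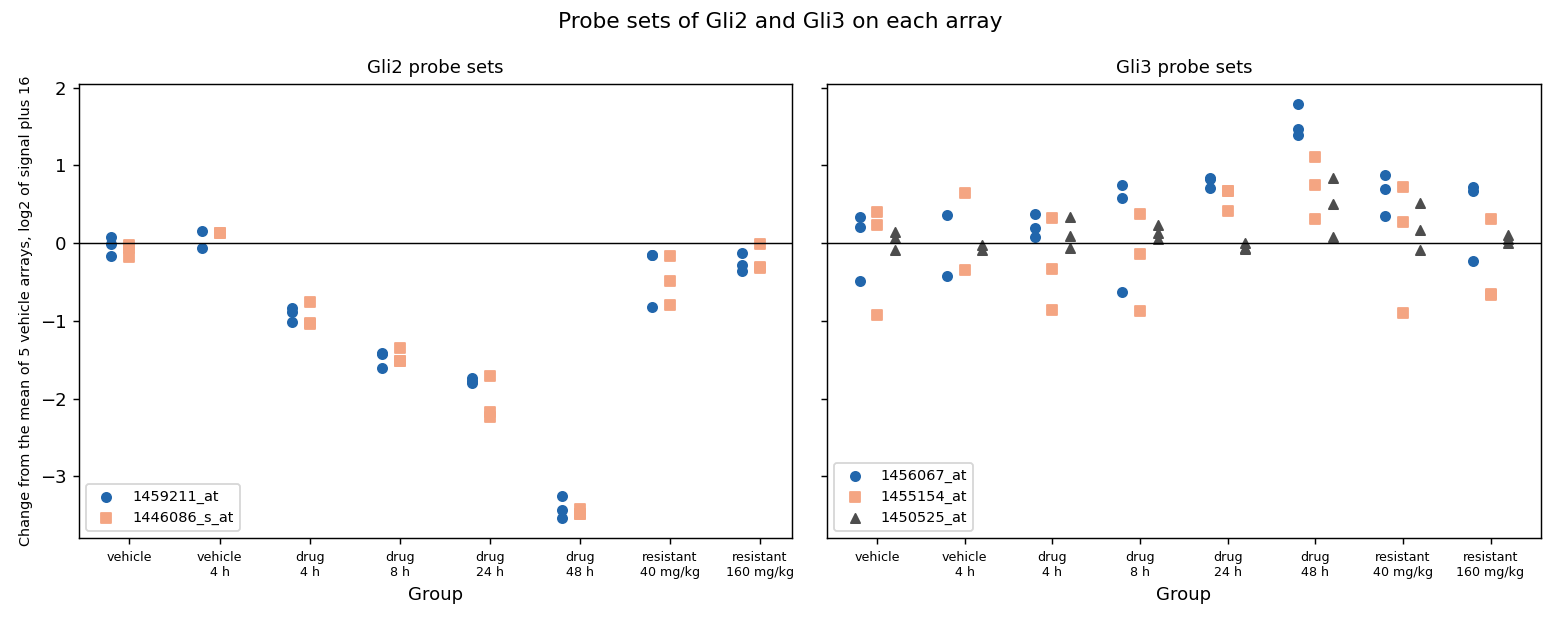
Change of each probe set of Gli2 (left) and Gli3 (right) on each array, as log2 of signal plus 16 minus the mean of the 5 vehicle arrays, by group. Both Gli2 probe sets fall side by side to their lowest values at 48 h, whereas the Gli3 rise at 48 h is clearest for 1456067_at.

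Markers of other cell types also changed at 24 h or 48 h. The 8 macrophage markers summed to 1339 to 2218 with vehicle, 2890 to 4834 at 24 h and 22530 to 29890 at 48 h, and 8 of 8 rose at 48 h. The 8 fibroblast markers summed to 3241 to 8216 with vehicle, 17510 to 23780 at 24 h and 32270 to 45630 at 48 h, and 8 of 8 rose at 48 h. Skeletal muscle markers rose in 7 of 8 at 24 h (7807 to 11470, against 106.7, 9765 and 130.3 on the vehicle arrays). At 48 h limma called 0 of these 8, and their sums ran from 232.4 to 11380. Endothelial markers rose in 7 of 7 at 48 h (1318 to 1967, against 312.3 to 509.9). Neuron markers rose in 5 of 6 (9436 to 10370, against 2614 to 2830). Of 7 astrocyte and glia markers 1 was called lower and 0 higher, with sums of 814.9 to 965.8 against 2204 to 2400. Their median change at 48 h was 0.1, against 0.04 over all probe sets tested. Bright genes weigh most in that sum: S100b read up to 2324.8 and Aqp4 at most 30.5. Over all probe sets, 20.6% were called higher and 17.7% lower at 48 h, and 16.6% higher at 24 h. The 3′ to 5′ actin difference, a measure of RNA integrity, was 1 to 1.08 with vehicle, 1.41 to 1.83 at 24 h and 0.84 to 0.96 at 48 h on the log2 scale. The part of these in the late levels of Gli2 and Gli3 was not tested. At 4 h and 8 h, 0 of 8 macrophage, 0 of 8 fibroblast and 0 of 7 endothelial markers were called by limma against the 4 h vehicle. An unadjusted p under 0.05 was found for 0 of them. With 2 control arrays, these comparisons called 0.285% of all probe sets at 4 h and 3.25% at 8 h, so a list this short can lack calls. In the same comparisons, 3 of 8 granule neuron lineage markers were higher at 8 h, 1 of 6 neuron markers was higher and 1 of 7 astrocyte and glia markers was lower. Over all probe sets, 1.45% were called higher and 1.8% lower at 8 h. At 4 h limma called 0 of these 3 lists, with an unadjusted p under 0.05 for 3, 1 and 2 markers. The part of any of these cell types in the early levels of Gli1 and Gli2 was not tested.

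In tumours described as resistant at 40 mg/kg, both activators were far above their level after 48 h of the same dose. Gli1 read 1259.2, 1268.8 and 966.1, and all 3 arrays were above every array of the other groups. Against 48 h drug it was at least 42.1-fold higher (5.41, SE 0.31; limma adjusted p = 6.1e-12), the fourth highest change, and 30% of probe sets were called. Gli2 read 1195.3, 741.2 and 1188.9, which was 9.22-fold above 48 h drug (3.03, SE 0.14; limma adjusted p = 6.6e-14). The array of replicate 2 was the low one for Gli2, and its Gli1 was the highest of its group. Gli3 read 40.2, 33.9 and 23 and was lower than at 48 h (-0.91, SE 0.33; limma adjusted p = 0.041), beside 15.4% of probe sets called lower. The call on Gli3 was lost on leaving out 5 of the 6 arrays in turn, each time with the same sign (-0.99 to -0.76), and also with an offset of 1 (-1.2), with no filter and after quantile normalization (-0.79). The 5 arrays are replicates 2 and 3 of the resistant group and all 3 of the 48 h group. In this comparison 8 of 8 macrophage, 6 of 8 fibroblast, 4 of 7 endothelial and 5 of 6 neuron markers were lower in the resistant tumours, and 5 of 8 granule neuron lineage markers were lower and 2 higher. Their part in the differences of the GLI genes was not tested.

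Set against vehicle, 0 of the 5 tested GLI probe sets was called by limma in either resistant group, in comparisons that called 7.11% (40 mg/kg) and 1.01% (160 mg/kg). An unadjusted p under 0.05 was found for 3 of the 5 at 40 mg/kg and for 0 at 160 mg/kg. The Gli1 arrays at 40 mg/kg averaged 172% of the vehicle mean and did not overlap it, which 11.2% of probe sets also did in the higher direction. The difference was 0.76 (95% interval 0.11 to 1.40; limma adjusted p = 0.17). It was called with an offset of 64 (0.72, adjusted p = 0.0068), with values held at the floor (0.76, adjusted p = 0.0073) and with only the compared arrays in the fit (0.76, adjusted p = 0.011). The shared spread of Gli1 is set in part by groups near the floor, where the SD of log2 values was 0.57 at 8 h and 0.93 at 24 h, against 0.09 with vehicle and 0.22 at 40 mg/kg. Gli2 at 40 mg/kg was at 80.3% of the vehicle mean (-0.34, 95% interval -0.63 to -0.06; limma adjusted p = 0.15). Gli3 differed by 0.62 (limma adjusted p = 0.32).

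At 160 mg/kg Gli1 read 703.0, 601.8 and 593.7, within or just below the vehicle range (-0.10, 95% interval -0.75 to 0.55; limma adjusted p = 0.93). Gli2 read 1084.5, 1212.9 and 1033.2, 85.5% of the vehicle mean (-0.22, 95% interval -0.51 to 0.06; limma adjusted p = 0.51). Gli3 read 10.1, 32.7 and 34.4 (0.36, limma adjusted p = 0.69). Between both resistant groups, Gli1 was lower at 160 mg/kg on all 3 arrays than on any at 40 mg/kg, as were 5.97% of probe sets. That difference was -0.86 (95% interval -1.50 to -0.21; limma adjusted p = 0.21), and it was called with an offset of 64 (-0.81, adjusted p = 0.0057) and with values held at the floor (-0.86, adjusted p = 0.0064). Gli2 differed by 0.12 and Gli3 by -0.26 between these doses, and 2.13% of probe sets were called.

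**Figure D3:**
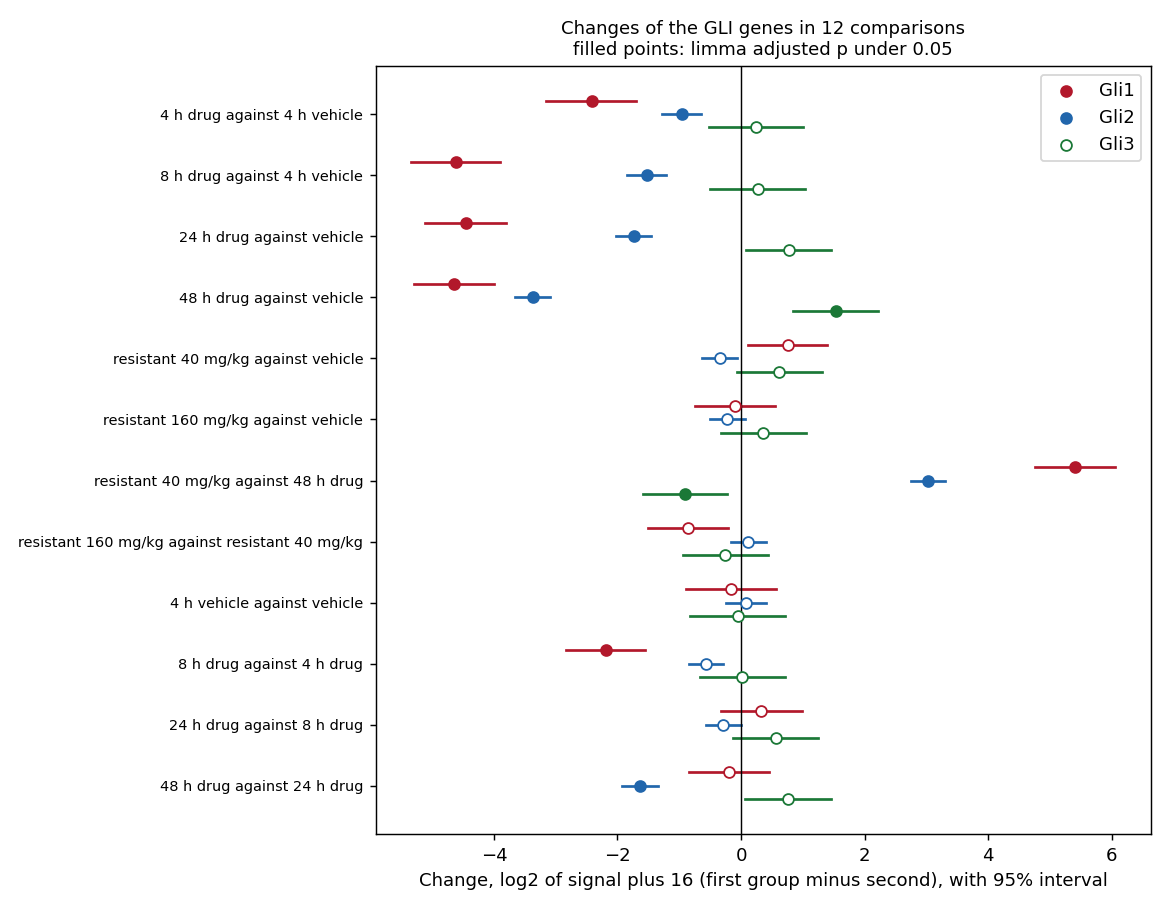
Change of each gene in 12 comparisons, as log2 of signal plus 16 in the first group minus the second, with 95% intervals of the limma fit; filled points have an adjusted p under 0.05. Gli1 and Gli2 lie left of 0 in all 4 comparisons of drug with vehicle and right of 0 for resistant tumours against 48 h drug, while open points mark both resistant groups against vehicle.

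Each gene ordered the groups in its own way. For Gli1 the order from the lowest mean was 8 h, 48 h and 24 h drug, then 4 h drug, then 4 h vehicle, resistant at 160 mg/kg, vehicle and resistant at 40 mg/kg. Only the steps from 24 h to 4 h drug (1.87, limma adjusted p = 0.00011; 22.1% of probe sets called) and from 4 h drug to 4 h vehicle (2.42) passed the test between neighbours. For Gli2 the order was 48 h drug, then 24 h, 8 h and 4 h drug, then resistant at 40 and at 160 mg/kg, vehicle and 4 h vehicle. The steps from 48 h to 24 h (1.64) and from 4 h drug to resistant at 40 mg/kg (0.54, limma adjusted p = 0.011; 11.1% called) passed. For Gli3, whose order ran from 4 h vehicle up to 48 h drug, 0 of the 7 neighbouring steps passed the limma test, and 1 had an unadjusted p under 0.05. The difference between the vehicle groups was -0.17 for Gli1, 0.08 for Gli2 and -0.05 for Gli3, with 0 of 5 GLI probe sets called by limma, 0 with an unadjusted p under 0.05, and 0.123% of all probe sets called.

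Whether the genes changed by unequal amounts was tested on the log2 difference between each pair of genes within an array, by a two-sided exact permutation test over arrays, adjusted over 9 such tests. From both vehicle groups (5 arrays) to drug at 24 h and 48 h (6 arrays), Gli1 fell by 1.90 more than Gli2 (exact p = 0.0043, the smallest possible, adjusted p = 0.0065). This size was -3.08 with an offset of 1 and -0.84 with an offset of 64, as Gli1 lies near the floor. The changes of Gli1 and Gli2 relative to Gli3 were -5.66 and -3.76 (exact permutation test, adjusted p = 0.0065 for both). They were -7.65 and -4.57 with an offset of 1 and -3.74 and -2.90 with an offset of 64, and Gli3 was above the floor on 0 of 3 vehicle arrays. In the first run of titles alone, which holds 3 vehicle, 5 late drug and all 6 resistant arrays, these 3 differences were -1.81, -5.75 and -3.94 (exact test, adjusted p = 0.054, where 0.036 is the smallest possible unadjusted p). From late drug to resistant tumours (6 arrays each), Gli1 rose by 2.61 more than Gli2, and the differences from Gli3 were 5.54 and 2.93 (exact test, adjusted p = 0.0065 for all 3). With offsets of 1 and 64 these ran from 3.80 to 1.52, from 7.11 to 3.89 and from 3.31 to 2.37.

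Between resistant tumours of both doses, pooled, and both vehicle groups, Gli1 rose by 0.71 relative to Gli2 (exact p = 0.039, adjusted p = 0.044). Against the vehicle group with no stated time, Gli1 and Gli2 changed by 0.76 and -0.34 at 40 mg/kg. At 160 mg/kg they changed by -0.1 and -0.22. The pooled value thus came mostly from 40 mg/kg, and the doses were not tested apart. Gli2 fell by 0.83 relative to Gli3 (exact p = 0.03, adjusted p = 0.039). The latter was -1.26 with an offset of 1 and -0.52 with an offset of 64. Gli1 against Gli3 gave -0.12 (exact p = 0.7). Within the first run of titles, the first 2 of these were 0.61 (exact test, adjusted p = 0.13) and -0.77 (adjusted p = 0.12). Leaving out each of the 11 arrays in turn gave 0.50 to 0.85 and -0.98 to -0.68. By the exact test, the first kept its call only without replicate 2 of the vehicle group or of the 160 mg/kg group. The second kept it only without replicate 1 or 2 of the vehicle group, replicate 2 of the 4 h vehicle, replicate 3 at 40 mg/kg or replicate 1 at 160 mg/kg.

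**Figure D4:**
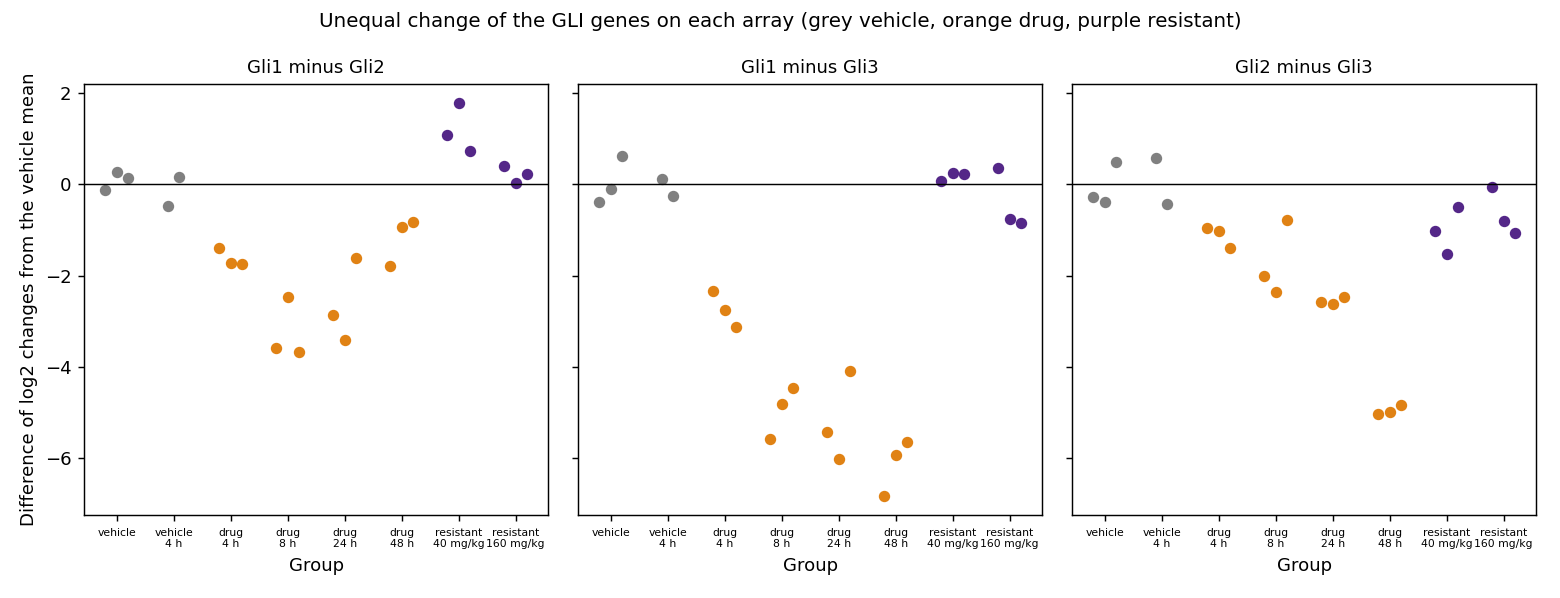
Difference between the changes of a pair of genes on each array, with each gene's log2 of signal plus 16 taken relative to its mean over 5 vehicle arrays, by group (grey vehicle, orange drug, purple resistant). Gli1 lies furthest below Gli2 at 8 h and 24 h, and the gap narrows at 48 h, when Gli2 had reached 8.54% of its vehicle mean.

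The genes with the most similar profile were ranked by Pearson's r of log2 values over 23 arrays, among 14977 genes. As arrays of a group share their treatment, r describes the group pattern and no p is given. For Gli1 they were Tmtc1 (r = 0.965), Slc29a1, a nucleoside transporter (0.959), Fam155a (0.948), the Eph receptor Epha8 (0.94) and Doc2b (0.939). Tmtc1 fell from a mean signal of 307 with vehicle to 42 at 48 h and was at 367 in resistant tumours at 40 mg/kg. For Gli2 they were Ccnd1, which encodes cyclin D1 (0.981), the Hedgehog co-receptor Boc (0.969), Irs1 (0.961), Gnl3 (0.959) and Wnt4 (0.95). Ccnd1 went from 3740 to 294 and Boc from 1190 to 128 at 48 h, while Wnt4 was at 656 in resistant tumours at 40 mg/kg against 1600 with vehicle.

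The profiles nearest to Gli3 were those of Cd59a (0.886), Lrp10 (0.87), the chemokine receptor gene Cx3cr1 (0.87), Tpra1 (0.863) and the leukocyte adaptor gene Fyb (0.862). Cx3cr1 and Fyb, both known from blood-derived and macrophage-lineage cells, rose from 107 to 542 and from 76.9 to 487 between vehicle and 48 h. Between the GLI genes themselves, r was 0.82 for Gli1 with Gli2, -0.38 for Gli1 with Gli3 and -0.71 for Gli2 with Gli3. Within the 6 resistant arrays, the profiles nearest to Gli1 were those of Id1 (0.992), 4931428F04Rik (0.986), Hpca (0.986), Bmp7 (0.985) and Jtb (0.982). For Gli3, which read 10.1 to 40.2 there, near the floor, they were Sumf1 (0.994), Slc39a8 (0.993), Fcgr2b (0.992), Acot6 (0.989) and Tmem98 (0.987). Both lists are the top of 14977 genes ranked over only 6 arrays, so high r values arise by selection. Whether they exceed what chance gives was not tested.

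Among genes that act upstream of the GLI factors, the calls at 4 h were on receptors. At 4 h limma called 0 of 7 tested ligand and ligand release genes, 0 of 12 signal transducers and 0 of 23 kinases, ubiquitin ligases and co-factors, with unadjusted p under 0.05 for 1, 1 and 2 of them. Of 6 tested receptor and decoy genes, the receptor Ptch1 fell from 2232 ± 213 (SD, n = 2) with 4 h vehicle to 1095 ± 41.7 (SD, n = 3) at 4 h (-1.01, limma adjusted p = 0.0026). Boc fell by 0.73. Over all probe sets, 0.234% were called lower at 4 h. The count of pathway genes called at 4 h, 5 in all, was 1 with the title run as a block and 0 without the arrays another label calls resistant. At 8 h these were joined by Hhip, a membrane protein that sequesters ligand (-1.97), and the median of the 6 genes was -0.69, against 0.01 over all probe sets tested. Ptch1 and Hhip are also listed as GLI targets. At 48 h 5 of the 6 had fallen, with a median of -2.13 against 0.04. Among the transducers, Stk36, a kinase related to Drosophila fused, rose at 8 h (1.15, limma adjusted p = 0.0095). Smo, which encodes the target of the drug, gave 0.05 at 4 h and -0.08 at 8 h, neither called, and fell by 0.92 at 48 h, when 6 of 12 transducers had fallen and 2 had risen, beside 17.7% of all probe sets called lower and 20.6% called higher. Sufu, a cytoplasmic inhibitor of GLI proteins, was not called against vehicle at any time (-0.45 at 8 h, -0.15 at 48 h).

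Of 19 tested GLI target genes, 4 fell at 4 h, 6 fell and 2 rose at 8 h, and 14 fell and 2 rose at 48 h. The median at 48 h was -1.31, against 0.04 over all probe sets tested. This list, like the other pathway lists, was chosen with earlier results of these data known and is no independent set. As stated above, pathway calls at 4 h were mostly lost with the title run as a block, and all lost without the arrays another label calls resistant. Over all probe sets, 0.234% were called lower at 4 h. At 8 h 1.8% of all probe sets were called lower and 1.45% higher, and at 48 h 17.7% and 20.6%. Ccnd1 fell by 1.03 at 4 h and fell by 3.61 at 48 h. Mycn, a driver of precursor division, fell by 0.71 at 4 h and fell by 1.51 at 48 h. The follistatin gene Fst fell by 3.65 at 48 h. Of 7 tested zinc finger genes related to the GLI family, 3 rose at 48 h (Zic1 by 0.83, Glis3 by 1.07 and Zic4 by 0.62) and 0 fell. Of the 23 kinases, ligases and co-factors, 9 fell and 4 rose at 48 h, with a median of -0.02 against 0.04 over all probe sets tested. The shares over all probe sets were 17.7% lower and 20.6% higher. Prkacb, a catalytic subunit of the protein kinase A that marks GLI proteins for cutting, rose by 1.01. Csnk1a1, a casein kinase 1 gene, fell by 0.87.

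In resistant tumours at 40 mg/kg, 6 of 19 target genes fell against vehicle and 1 rose, with a median of -0.28 against 0.02 over all probe sets tested, of which 3.29% were called lower and 3.83% higher. Hhip was at 52.17 ± 42.5 (SD, n = 3) against 210.6 ± 27 (SD, n = 3) with vehicle (-1.90, limma adjusted p = 0.0013). Cdk6 fell by 1.38 and Sfrp1 fell by 1.60. Ptch1 (-0.18, adjusted p = 0.58), Ccnd1 (-0.11) and Mycn (-0.28) were not called, on arrays where Gli1 averaged 172% of vehicle. The macrophage markers summed to 7025 to 9813 in these tumours, with 7 of 8 higher than vehicle, and the fibroblast markers to 14390 to 19120, with 4 of 8 higher. Their part in these differences was not tested. At 160 mg/kg, 0 of 19 targets was called by limma and 5 had an unadjusted p under 0.05. Ptch1 gave -0.34, Hhip -0.57 and Ccnd1 0.01. Compared with 40 mg/kg, 4 targets were higher at 160 mg/kg and 1 was lower, with Hhip at 1.34 (limma adjusted p = 0.042) and Fst at -1.30, while Gli1 gave -0.86. Over all probe sets, 1.35% were called higher and 0.778% lower. With only the compared arrays in the fit, limma called 0 of the 6 pathway genes called between the doses.

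Gli2 was also set beside its neighbours on one side in the RefSeq gene order, Inhbb and then Ralb. Those on the other side were not examined. Inhbb, a subunit gene of inhibins and activins, differed from vehicle by 0.83 (limma adjusted p = 0.3) at 40 mg/kg and by 1.27 (limma adjusted p = 0.17) at 160 mg/kg. Ralb, which encodes a small GTPase, rose at 40 mg/kg (0.92, limma adjusted p = 0.0053), beside 3.83% of probe sets called higher. It was not called at 160 mg/kg (0.63, limma adjusted p = 0.14). At 48 h of drug, where Gli2 fell, Ralb rose (1.76, limma adjusted p = 1.5e-07), beside 20.6% of probe sets called higher. These values are of RNA and give no copy number.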

How the data were processed

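Total RNA of tumour samples was hybridized to 23 1-colour arrays. The deposited values are linear signal intensity, 1 per probe set, which the authors made with MAS5, per the submitters' processing notes; version and scaling target are not given in the sources used here, but the 2% trimmed mean was 150 on every array. The design text names the smaller A version of the Affymetrix mouse array, whereas the table's 45101 rows match the full version. Detection calls and probe-level signals were not used here. MAS5 subtracts mismatch signals, so low values are noisy, and such arrays give no counting error; their number limits the precision.

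Groups were taken from the sample descriptions. Gene names are those of the platform annotation: 34958 probe sets have 1 symbol, 932 several and 9211 none, and list genes under older symbols were matched through RefSeq synonyms. From the deposited intensities, log2 of signal plus 16 was computed, on which folds understate changes of dim genes. Probe sets had to exceed the 40th percentile of 2 or more arrays to be tested (35069, covering 14980 genes; 64 control probe sets were left out). Differences were fitted with limma 3.58.1 in R 4.3.3 (lmFit, eBayes with trend; 8 group means in 1 model, 15 residual and 8.5 prior degrees of freedom), two-sided, with Benjamini-Hochberg adjustment over all tested probe sets within each of 12 comparisons. All 28 pairs of groups were fitted for the order of levels. Folds written as "at least" hold each signal at its array's 40th percentile. Unequal change was tested by exact permutation in scipy 1.17.1. The fits and the permutation test were tested on simulated data.

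A gene is represented by whichever of its tested probe sets was brightest on average, and the others are reported beside it. Named genes are these 3, the 5 most similar profiles of each over all arrays (over the 6 resistant arrays where a gene spans over 2-fold there), up to 3 called genes of smallest adjusted p per pathway list and comparison, Ptch1, Hhip, Ccnd1, Mycn, Smo and Sufu, and the neighbours Inhbb and Ralb. Genes of the pathway lists with no single-symbol probe set or below the filter were not tested. The members and lists were chosen with earlier results of these data known. Same-numbered replicates of different groups did not deviate together (mean correlation 0 over 70 pairs, 1 above 0.1), so the numbers were not read as pairs.

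Alternatives were offsets of 1 and 64, values held at the 40th percentile, no filter and a 60th-percentile filter, eBayes with no trend, quantile normalization, a replicate block, a block for the run of titles, both vehicle groups as control, only the compared arrays, and each array left out. Leaving out the arrays that another label calls resistant, using only the first run of titles, and the alternatives for the order of levels were chosen after seeing the data.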

Additional observations from a re-analysis of the deposited data

Results flagged for a closer look

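On probe set 1459211_at, Gli2 was low on 1 of the 6 resistant arrays. Replicate 2 at 40 mg/kg read 741.2, against 1033.2 to 1212.9 on the other 5, and the gap to its nearest neighbour took up a share of 0.674 of the whole range, above Dixon's limit of 0.625 for 6 samples. The other probe set of Gli2 was also lowest on this array, at 383.3, and did not pass that limit. About 1 in 20 such groups is singled out by chance.

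Of the steps from 4 h to 8 h and from 24 h to 48 h of the same drug dose, 3 were called by limma. Gli1 was lower at 8 h than at 4 h (-2.19), and both probe sets of Gli2 were lower at 48 h than at 24 h (-1.64 for 1459211_at and -1.42 for 1446086_s_at). The step from 8 h to 24 h was not screened for this flag. Over it, 1446086_s_at was also called lower (-0.58, limma adjusted p = 0.0093).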

How the results depend on the processing

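No result changed its sign while called. An offset of 1 gave -2.59 for Gli1 at 4 h, -1.20 for Gli3 in resistant tumours at 40 mg/kg against 48 h drug, and 1 passing step in the Gli1 order. An offset of 64 gave 0.72 for Gli1 at 40 mg/kg against vehicle, -0.81 for Gli1 between the resistant doses, 0.45 for Gli3 from 24 h to 48 h, and 1 passing step in the Gli3 order. The floor at the 40th percentile gave 0.76, -0.86 and 0.76 for these, 0.45 for Gli3 at 24 h, and 1 passing step in the Gli3 order. For Gli3 against 48 h drug, no filter gave -0.91 and quantile normalization -0.79, not called by limma (adjusted p = 0.06 and 0.073). The title run block gave -0.85 for Gli2 at 4 h and 1 passing step in the Gli2 order. Without the arrays another label calls resistant, Gli1 and Gli2 at 4 h were -2.16 and -0.93; the 8 h group then holds no array and could not be fitted. Both vehicle groups as control called Gli3 at 24 h (0.79). With only the compared arrays, limma also called 0.76 for Gli1 at 40 mg/kg, -0.57 for Gli2 from 4 h to 8 h, -0.29 for Gli2 from 8 h to 24 h and 0.76 for Gli3 from 24 h to 48 h. The replicate block moved 0 calls of the GLI genes, and moved the pathway genes called from 4 h to 8 h from 0 to 1. A filter at the 60th percentile left Gli3 untested. The first title run alone gave -1.81, -5.75, -3.94, 0.61 and -0.77 for differences between genes.

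Leaving out each array in turn changed the call of 5 results: -2.64 to -2.21 for Gli1 and -1.07 to -0.85 for Gli2 at 4 h, -1.02 to -0.76 for Gli3 against 48 h drug, and 0.50 to 0.85 (Gli1 less Gli2) and -0.98 to -0.68 (Gli2 less Gli3) for resistant tumours against vehicle.

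Counts of called pathway genes moved by over 1.5 times as follows. For 4 h drug (5 in the main setting) they were 3 without trend, 1 with the title run block, 8 with both vehicle groups or only the compared arrays, and 0 without the arrays another label calls resistant. For 8 h drug (10) they were 5 with the title run block and 18 with both vehicle groups. From 8 h to 24 h (15) the title run block gave 7, and from 24 h to 48 h (23) leaving out the arrays with the other label gave 15. From 4 h to 8 h (0), only the compared arrays gave 5. For 40 mg/kg against vehicle (9), no trend gave 5; for 160 mg/kg (0), both vehicle groups gave 1; between the doses (6), only the compared arrays gave 0. Between vehicle groups (0), an offset of 64, quantile normalization and only the compared arrays gave 1. The cause was not tested. Signal over background limits Gli1 from 8 h on and Gli3 in every group with an array under the floor, that is all but 24 h, 48 h and resistant at 40 mg/kg.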
